A study of Mus musculus with 32 samples.

Results

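The comparison described here sets the monocyte graft of a transfer experiment against the cells recovered from the colon of the recipients on day 12. It was chosen by the sample labels, as the 3 libraries of monocytes and the 4 libraries of colon and day 12, and holds 7 of the 32 samples of the series. Monocytes are short-lived blood cells made in the BM that enter tissues and become macrophages, and in the gut wall they steadily replace macrophages that clear dying cells and microbes. Gut macrophages are known for C1q, the recognition part of the classical complement pathway, for MHC class II, and for a restrained response to microbes that depends on IL-10. IL-10 binds a receptor made of IL-10RA and IL-10RB, acts through the factor STAT3, and induces SOCS3, which damps cytokine signalling.

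The recipients were [CD11c-DTR > WT] BM chimeras, meaning irradiated wild-type mice given marrow that carries the diphtheria toxin receptor under the CD11c (Itgax) promoter (the Tg[Itgax-DTR/GFP]57Lan/J allele of B6.FVB mice, on C57BL/6J). They received 18 ng of diphtheria toxin per gram on each of the 2 days before transfer and 9 ng per gram every other day from day 1 to day 9 after it. The promoter is active in mononuclear phagocytes, so host cells that do not carry the transgene, epithelium and stroma included, remain. According to the methods, the graft was BM monocytes of Cx3cr1 gfp/+ donors with the CD45.1 allotype (CD117-, CD11b+, CD115+, Ly6C+, GFP intermediate), and the progeny were isolated by CD45.1 and CX3CR1/GFP. The labels name blood as the organ of the graft, give the CD11c-DTR genotype to all 7 libraries, and give no toxin to the graft. For the colon the labels state a sort of living CD45+CD11b+CD64+Ly6C-MHCII+ cells. The age of the animals is not in the labels, and no label says whether a library pools several mice. P-values therefore measure the spread between libraries, estimated within 7 groups over the 25 libraries of the fit described below.

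By the dates in their labels the libraries come from 3 experiments, each with its own graft. Experiments 1 and 3 gave 1 colon day 12 library each and experiment 2 gave 2, which carry replicate numbers 2 and 3. Values of single libraries are given in that order throughout: graft of experiments 1, 2 and 3, and colon of experiment 1, experiment 2 (replicate 2, then replicate 3) and experiment 3. The values are counts of 3′ end reads per gene, made by a derivation of MARS-seq. Between 2447862 and 3639328 reads fell on genes in the graft and between 1891838 and 4604348 in the colon, where replicate 2 was the least deep. A normalized read is 1 read per 10000000 mapped reads of its library, and counting limits given here cover counting error only. Changes were estimated by edgeR from the counts of 25 libraries, with an adjusted p (Benjamini-Hochberg) under 0.05 as the threshold that a gene had to pass. Of 11842 genes tested, 4463 (37.7%) were higher and 2952 (24.9%) were lower on day 12, which is 62.6% in all. Scaling to the mapped totals in place of edgeR's TMM gave 3669 higher and 3887 lower, as the median log2 fold change of all genes moved from 0.24 to -0.10. Component 1 of a principal component analysis held 90.1% of the variance and separated the 3 graft libraries (-99.0 to -96.1) from the 4 colon libraries (65.1 to 76.4).

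The colon libraries did not have the make-up their label names. Transcripts of intestinal epithelium, which the sort should leave out, were among the most abundant, and genes shared by many leukocytes were at a small part of their level in the graft. The 20 genes of the haematopoietic list, which act in the cytoskeleton and signalling of white blood cells, summed to 162218, 149346 and 163214 normalized reads in the graft and to 5439.6, 12194, 3699.8 and 4342 in the colon. Not all of them act in every type of white blood cell. All 20 fell, with a median log2 fold change of -4.01 and a range from -6.59 (Lsp1) to -1.86 (Cd53). Ptprc, which encodes CD45 itself, had 3826, 5204 and 6089.8 normalized reads in the graft and 292, 965, 208 and 143 in the colon, a log2 fold change of -3.33 (SE 0.59, adjusted p = 3.32e-05 by edgeR). Coro1a, an actin regulator of leukocytes, changed by -5.71, adjusted p = 7.3e-08 and Tyrobp, an adaptor of myeloid receptors, by -4.21, adjusted p = 3.17e-06. In bulk RNA, fewer cells of a type and less RNA per cell cannot be told apart.

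The 25 genes of the epithelial list summed to 67.8 to 95.4 normalized reads in the graft and to 173696, 126862, 166929 and 153571 in the colon, and all 25 rose. Krt8, an epithelial keratin, had 4.84, 5.61 and 7.75 normalized reads in the graft and 28523, 20334, 21884 and 24130.1 in the colon. Lgals4, a gut lectin, had 14.5, 28.1 and 9.69 and 35237, 26175, 35096 and 36348, and Cdh1, which encodes E-cadherin, had 0, 8.42 and 3.88 and 2783, 2416, 2189 and 1461. Epcam, an epithelial adhesion molecule, had 1 count in the 3 graft libraries together against 7662, 4609, 4916 and 4608 normalized reads in the colon, a ratio of 6958-fold (95% counting interval 1249 to 274838). Cldn3, a tight junction protein, had no count in the graft and was at least 1571-fold higher, where such bounds are set against 3 counts over the whole group. Every colon library thus lay far above every graft library for these genes.

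**Figure D1:**
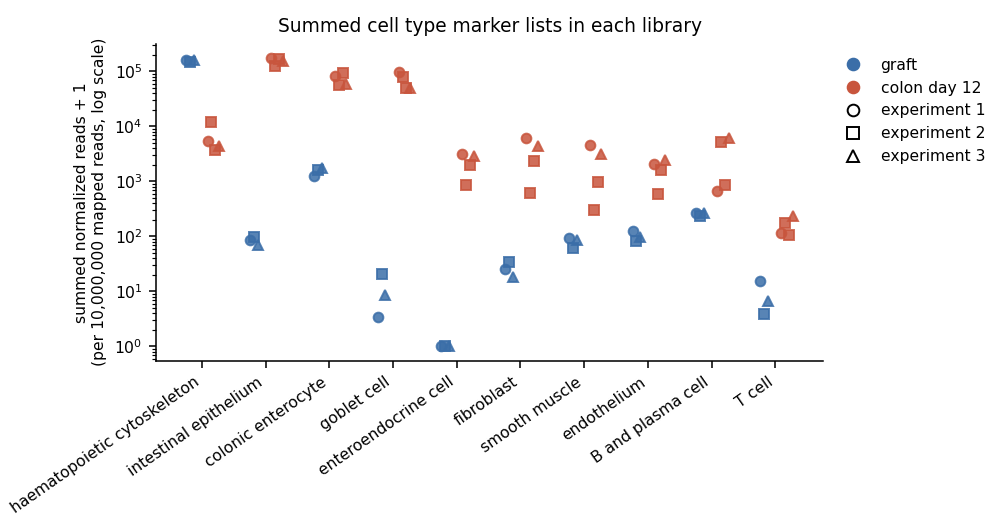
Summed normalized reads (plus 1, log scale) of 10 marker lists in each library, with the 3 graft libraries in blue, the 4 colon day 12 libraries in red and the marker shape giving the experiment. The haematopoietic list is lower and the epithelial lists are higher in all 4 colon libraries than in any graft library, while fibroblast and muscle genes are lowest in replicate 2 of experiment 2.

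Genes of several epithelial cell types rose. All 14 tested genes of colonic enterocytes rose, among them Car1, a carbonic anhydrase (15538, 7009, 14583 and 7072 normalized reads), Slc26a3, a chloride and bicarbonate exchanger (1004, 1028, 1455 and 947, at least 475-fold higher), and Aqp8, a water channel (681, 722, 1316 and 797, at least 377-fold). All 9 goblet cell genes rose, with Muc2, the main mucin, at 24528, 14209, 17748 and 9826, Zg16, a mucus lectin, at 17296, 5403, 2455 and 5865 and Tff3, a trefoil peptide, at 11782, 3310.0, 1434 and 7248, from at most 8.42 in any graft library. All 6 enteroendocrine genes rose from no count, Chga, a granin of secretory vesicles, to 378, 28.0, 97.5 and 229. Of 10 genes of small intestinal enterocytes 7 rose, against 37.7% of all genes. Fabp1, a fatty acid carrier, had 0, 52.9, 2.44 and 4.95 normalized reads and Apoa1, an apolipoprotein, 1.95, 15.6, 24.4 and 19.8, and neither passed, nor did Apoa4, whereas Fabp6, a bile acid carrier of the ileum, rose to 243, 171, 194 and 279 from 0. Of 7 Paneth and stem cell genes 4 rose and 1 fell, against 37.7% and 24.9% of all genes. Lgr5, a stem cell receptor, rose to 87.6, 40.5, 14.6 and 52.8. The fall was that of Lyz1 (20628, 26282 and 33129 in the graft, 582, 2152, 825 and 785 in the colon). Lyz1 and the myeloid Lyz2 are near-identical and their reads may be split wrongly. With genes that had no count in the graft set to their bound, the list medians were 9.79 for epithelium, 8.72 for colonic enterocytes, 11.85 for goblet cells and 3.63 for small intestinal enterocytes, against fitted medians of 11.42, 11.29, 12.52 and 6.15.

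Stroma and other immune cells were also represented, at lower levels. Of 10 fibroblast genes 9 rose, of 6 smooth muscle genes 6 and of 9 endothelial genes 9, against 37.7% of all genes. All 3 lists were lowest in replicate 2. Col1a1 and Dcn, matrix genes of fibroblasts, had 967, 90.3, 218 and 477 and 1304, 149, 480.0 and 1572 normalized reads from 0. Acta2, smooth muscle actin, had 84.8, 61.8 and 81.4 in the graft and 1345, 68.5, 285 and 1036 in the colon, so that replicate 2 lay within the graft range. Cdh5, a junction protein of endothelium, had 72.0, 3.114, 54.8 and 67.6 from 0. For T cells, Cd3e was at 0 in all 7 libraries. Of 7 tested genes Cd4 (70.1, 143, 73.1 and 191, which macrophages can also express) and Lck rose, against 37.7% of all genes. For B and plasma cells, Cd79a had 17.0, 16.8 and 15.5 and 0, 0, 3.65 and 8.25 (adjusted p = 0.181), while Jchain, the joining chain of secreted antibodies, rose from at most 5.81 to 572, 5013, 816 and 6091. Of 5 dendritic cell genes 1 passed, against 62.6% of all genes in either direction. It was Flt3, a receptor of progenitors, which had 67.8, 101 and 147 in the graft and no count in the colon. Zbtb46 was below the filter (7.78, 0, 3.65 and 9.9). Of 8 neutrophil genes 5 fell and 2 rose, against 24.9% and 37.7% of all genes. Camp, a granule peptide, fell from 446, 522 and 546 to 0, 0, 0 and 4.95, and Mmp9, a gelatinase, rose from 67.8, 16.8 and 40.7 to 506, 1859, 328 and 107. Ly6g rose to 313, 143, 122 and 302 from 17.0, 11.2 and 19.4, and it belongs to a family whose members can share reads. Of 2 tested genes of eosinophils and mast cells, Kit, a receptor of mast cells and of pacemaker cells of the gut, rose from 0 to 152, 115, 127 and 110.5. Kit encodes CD117, and the graft was sorted as CD117-. Siglecf was below the filter (9.73, 21.8, 4.87 and 6.6). The part that these cells have in the changes below was not tested.

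Because the leukocyte genes fell together, each change was also expressed relative to them. With libraries scaled to the summed reads of the 20 haematopoietic genes, a setting chosen after seeing the data, 11380 genes (96.1%) were higher and 84 (0.709%) lower. The median log2 fold change of all genes was then 4.77, so a rise on that scale says little by itself. The 20 genes are themselves not constant on that scale: 5 were higher and 3, Coro1a, Lsp1 and Arhgdib, lower. For a gene expressed only in leukocytes the 2 scales can differ in sign, so both are given for many such genes. On the TMM scale, 60 genes (0.507%) had a log2 fold change below that of Lsp1, the lowest of the 20.

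The C1q genes, markers of gut macrophages, rose on the TMM scale, and also relative to the leukocyte genes, where 96.1% of all genes were higher. C1qa (chromosome 4, 136451831 to 136454759 in mm9) had 14.5, 39.3 and 36.8 normalized reads in the graft and 2908, 7735, 2112 and 3112 in the colon. C1qb had 12.11, 39.3 and 71.7 and 2715, 5001, 2127 and 2807, and C1qc had 21.8, 11.2 and 15.5 and 1754, 3494, 905 and 1194. The 3 genes encode the chains of C1q and lie next to each other on chromosome 4. In each of them the highest colon library was replicate 2 of experiment 2 and the lowest was replicate 3 of the same experiment, and no colon library overlapped the graft. The log2 fold changes were 7.37 (SE 0.89, adjusted p = 1.9e-07 by edgeR) for C1qa, 6.59 (SE 0.86, adjusted p = 5.85e-07 by edgeR) for C1qb and 7.10 (SE 0.83, adjusted p = 1.35e-07 by edgeR) for C1qc, and relative to the leukocyte genes they were 11.57, 10.95 and 11.31.

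**Figure D2:**
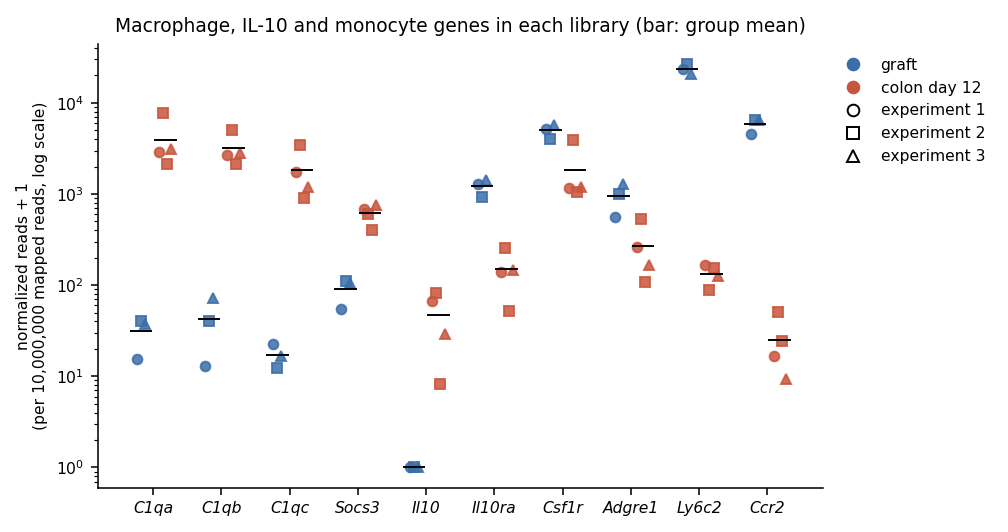
Normalized reads (plus 1, log scale) of 10 genes in each library, with colours and shapes by group and experiment and bars at the group means. C1qa, C1qb, C1qc, Socs3 and Il10 lie higher in all 4 colon libraries than in any graft library, and Il10ra, Csf1r, Adgre1, Ly6c2 and Ccr2 lie lower.

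Promoters from RefSeq (GRCm38.p6, 250 bases before to 50 after the start) are shown for the C1q genes that moved together and for Socs3, the STAT3 target. Capitals mark GAGGAA or its reverse complement, the core bound by PU.1, the myeloid factor encoded by Spi1, in the C1q genes, and TTCNNNGAA, a STAT site, in Socs3. No entry was found for C1qa or Il10. Coordinates are 4:136886151-136886450 (minus strand) for C1qb, 4:136892865-136893164 (minus strand) for C1qc and 11:117969317-117969616 (minus strand) for Socs3.
C1qb: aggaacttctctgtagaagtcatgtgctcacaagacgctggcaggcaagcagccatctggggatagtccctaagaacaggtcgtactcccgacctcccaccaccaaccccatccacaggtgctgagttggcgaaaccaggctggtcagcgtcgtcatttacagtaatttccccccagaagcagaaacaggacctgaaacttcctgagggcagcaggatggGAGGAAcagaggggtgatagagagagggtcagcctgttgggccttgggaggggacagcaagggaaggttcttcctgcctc
C1qc: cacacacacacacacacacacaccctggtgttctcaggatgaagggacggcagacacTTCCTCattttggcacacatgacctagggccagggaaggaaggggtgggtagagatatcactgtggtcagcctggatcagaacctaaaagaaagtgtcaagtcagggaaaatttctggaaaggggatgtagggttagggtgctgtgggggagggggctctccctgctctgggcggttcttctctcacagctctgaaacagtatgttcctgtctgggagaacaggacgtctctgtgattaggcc
Socs3: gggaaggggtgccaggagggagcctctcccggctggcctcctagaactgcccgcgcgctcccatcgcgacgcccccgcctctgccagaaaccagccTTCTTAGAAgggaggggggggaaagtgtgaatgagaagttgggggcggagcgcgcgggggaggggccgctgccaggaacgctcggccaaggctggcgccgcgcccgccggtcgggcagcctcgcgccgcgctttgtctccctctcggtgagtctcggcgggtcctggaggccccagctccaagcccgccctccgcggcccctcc
Each of the 3 promoters held 1 match to its motif, searched on both strands. A match to GAGGAA was found in 28.3% of all 27025 promoters, and in 26.7% of genes that rose and 30.5% of genes that fell among the 9079 tested genes with an entry. For TTCNNNGAA the shares were 8.47%, 6.30% and 6.71%. The matches are a description of the letters in these windows.

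Of 16 complement genes tested, 10 rose and 4 fell, against 37.7% and 24.9% of all genes, so the share of falls was near that of all genes. Their median log2 fold change was 3.58 (2.86 with genes at 0 set to their bound), against 0.24 for all genes. Serping1, the C1 inhibitor, rose from 0 in each graft library to 705, 68.5, 341 and 521. Its lowest library was replicate 2, as in the stromal lists. Cfp, which encodes properdin, a positive regulator of the alternative pathway, fell from 4064, 4334 and 4348 to 296, 772, 245 and 454, a log2 fold change of -2.92 (SE 0.67, adjusted p = 0.000591 by edgeR) and 1.42 relative to the leukocyte genes.

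The surface genes of macrophages moved in both directions, with 12 of 23 higher and 6 lower (median 1.58). Over all genes 37.7% were higher and 24.9% lower, so the share of falls was near that of all genes. Csf1r, the receptor for the growth factor of macrophages (CD115, for which the graft was sorted), had 5207, 4000.0 and 5784 normalized reads in the graft and 1164, 3942, 1048 and 1207 in the colon, where replicate 2 lay just under the lowest graft library. Its log2 fold change was -1.10 (SE 0.59, adjusted p = 0.109 by edgeR), and without replicate 2 it was -1.77 (adjusted p = 0.0147). Cx3cr1, the fractalkine receptor, had 877, 1156 and 996 and 154, 610.3, 175 and 460.1 (log2 fold change -1.16, adjusted p = 0.0571; -1.53 and 0.0215 without replicate 2, -1.38 and 0.0446 without replicate 4). With mapped totals both passed, Csf1r at -1.44 (adjusted p = 0.0374) and Cx3cr1 at -1.54 (adjusted p = 0.0116). Adgre1, which encodes F4/80, fell from 562, 1002 and 1292 to 263, 536, 107 and 167 (-1.52, adjusted p = 0.00995), and without graft replicate 2 the adjusted p was 0.0538. Itgam, which encodes CD11b, fell from 3989, 2886 and 4747 to 181, 455, 119 and 89.1 and Fcgr1, which encodes CD64, had 695, 679 and 866 in the graft and 149.9, 286, 102 and 80.8 in the colon (log2 fold change -1.97, adjusted p = 0.00476; 2.37 relative to the leukocyte genes). Fcgr1 was named after its values were seen, because it is a marker of the sort. Apoe, a lipid carrier abundant in tissue macrophages, rose from 4836, 5572 and 11344 to 18204, 55237, 16752 and 23881, and Cd63, a late endosome protein, from 9.69, 5.61 and 9.69 to 2701, 2351, 2148 and 1841. Lyve1, which marks some resident macrophages and lymphatic endothelium, rose from 0 to 181, 87.2, 202 and 84.1. Relative to the leukocyte genes the first 4 had the opposite sign, with log2 fold changes of 3.13 for Csf1r, 3.17 for Cx3cr1, 2.72 for Adgre1 and 0.34 for Itgam, of which the last did not pass.

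Of 25 regulators of macrophages 9 rose and 11 fell (median -0.61), against 37.7% and 24.9% of all genes. The share of rises was near that of all genes. Nr1h3, which encodes the sterol sensor LXRα, rose from 14.5, 2.81 and 17.4 to 169, 227, 186 and 203 (4.33, adjusted p = 2.09e-06). Spi1, the master factor of the myeloid lineage, fell from 3332, 2700.3 and 2699 to 239, 569.8, 119 and 117 (-3.19, adjusted p = 6.26e-05), and Irf8, a factor of monocyte development, from 4672, 4865 and 4991 to 1123, 1351, 462 and 546. Irf5, a factor of inflammatory programmes, had the largest fall of the list, from 3756, 3265 and 3745 to 52.5, 181, 43.9 and 54.4 (-5.15, adjusted p = 8.62e-07). The largest rises were those of Id3 (67.8, 47.7 and 17.4 to 2442, 1161, 1109.8 and 1471) and Bhlhe40 (12.11, 56.1 and 44.6 to 829, 604, 609 and 816), repressors of transcription that many cell types express. All 3 tested EGR factors, early response genes, rose, against 37.7% of all genes. Egr1 had 19.4, 25.3 and 11.6 in the graft and 4562, 3397, 3144 and 7398 in the colon, and Egr2 rose from 1 count in all to 130.4, 156, 122 and 193. Of 6 CEBP factors 5 fell, against 24.9% of all genes. Cebpa fell by 1.54, Cebpb fell by 3.16 and Cebpe, a factor of granule genes, fell by 5.76 on the log2 scale. Relative to the leukocyte genes Spi1 (1.03), Irf8 (2.21), Cebpa (2.87) and Cebpb (1.31, not passed) were higher, and Irf5 (-0.89) and Cebpe (-1.39) did not pass.

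Within the IL-10 axis the ligand and the target rose and the ligand-binding receptor chain fell. Il10 (chromosome 1, 132916422 to 132921547 in mm9) had no count in any graft library and 66.2, 81.0, 7.31 and 28.0 normalized reads in the colon, which is at least 19.5-fold higher (edgeR adjusted p = 0.000197, higher in 4 of 4 libraries). Replicate 3 was lowest, at 7.31, where 3 counts are worth 3.655. Il10ra had 1288, 926 and 1418 in the graft and 140.1, 255, 51.2 and 145 in the colon, a log2 fold change of -2.73 (SE 0.62, adjusted p = 0.000579 by edgeR). Il10rb, shared with other cytokines and widely expressed, had 389.9, 516 and 612 and 479, 564, 482 and 458, which overlap (adjusted p = 0.372). Stat3 fell from 1688, 1502 and 1678 to 901, 682, 536 and 587 (-0.94, adjusted p = 0.00113) and Tyk2, a kinase of the receptor, fell by 2.42 on the log2 scale. Socs3 (chromosome 11, 117827401 to 117830680 in mm9) rose from 53.3, 109 and 105 to 691, 601, 407 and 759, with a log2 fold change of 3.13 (SE 0.33, adjusted p = 2.58e-08 by edgeR). Unlike the C1q genes, Socs3 was not highest in replicate 2 but in experiment 3. Over the 18 genes of the list 6 rose and 6 fell (median 0.12), a share near that of all genes. Relative to the leukocyte genes Il10ra was higher by 1.62, Stat3 by 3.61 and Socs3 by 7.64, where the median of all genes was 4.77.

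In the TGF-beta pathway, which conditions gut macrophages, 11 of 22 genes rose and 1 fell (median 0.99), against 37.7% and 24.9% of all genes. The fall was that of Tgfb1, the ligand, from 1061, 1272 and 1077 to 136, 140.1, 88.9 and 84.1 (-3.02, adjusted p = 9.96e-05), which had the opposite sign relative to the leukocyte genes (1.47). Tgfbr2, the ligand-binding receptor, rose from 145, 213 and 252 to 403, 389, 318 and 364 (1.21, adjusted p = 0.00763), whereas Tgfbr1, its partner, had 421, 365 and 426 and 401, 445, 262 and 191. The largest rise was that of Ltbp1, a matrix protein that stores the ligand, from 0 to 60.3, 9.34, 34.1 and 66.0, with its lowest value in replicate 2.

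The 4 MHC class II genes of the presenting molecules and their chaperone rose. The labels state a sort of MHCII+ cells for the colon, whereas the methods name CD45.1 and CX3CR1/GFP for the progeny. The part that selection for MHCII had in this rise was not tested. H2-Ab1 had 547, 1258 and 2157 normalized reads in the graft and 10247, 16189, 4799.8 and 3348 in the colon, a log2 fold change of 3.03 (SE 0.73, adjusted p = 0.000958 by edgeR). H2-Eb1 changed by 3.73, adjusted p = 9.68e-05, H2-Aa by 2.50, adjusted p = 0.00187 and Cd74, the invariant chain, by 2.48, adjusted p = 0.00205. In experiment 3 Cd74 hardly differed, with 2308 in the graft and 2362 in the colon. H2-Aa had 859.7, 1403 and 3829 in the graft, so its highest graft library exceeded the lowest colon library (8818, 19203, 5070.3 and 3561). Both groups spread widely: the graft was highest in experiment 3, the colon in replicate 2 of experiment 2. Ctss, a protease that trims the invariant chain, fell from 12075, 13283 and 19379.6 to 3005, 4403, 2330.5 and 2184. Over the list 4 of 13 rose and 5 fell (median 0.13), against 37.7% and 24.9% of all genes. Relative to the leukocyte genes all 13 were higher (96.1% of all genes were), Ctss by 2.44.

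Of 35 lysosomal genes 6 rose and 14 fell (median -0.75), against 37.7% and 24.9% of all genes. Acp5, an acid phosphatase, rose from 126, 64.6 and 171 to 3614, 3998, 2112 and 1831 (4.89, adjusted p = 4.35e-07). Lgmn, a protease, had 392, 427 and 796 and 1226, 2728, 703 and 892 (1.69, adjusted p = 0.0138), and its adjusted p was 0.079 without colon replicate 2, 0.0657 without graft replicate 1 and 0.0625 without graft replicate 3. Psap, the precursor of the saposins, had the largest fall, from 35825, 25198 and 34481 to 3275, 5247, 2000.3 and 2165. Ctsb and Ctsd, cathepsins of most cells, changed by -0.75, adjusted p = 0.0622 and by -0.21, adjusted p = 0.636, and with mapped totals Ctsb passed (-1.10, adjusted p = 0.0106). All 35 were higher relative to the leukocyte genes, as were 96.1% of all genes, Psap by 1.37. Among 21 genes for the uptake of apoptotic cells 9 rose and 6 fell, near the 37.7% and 24.9% of all genes. Gas6, a bridge between dying cells and the receptors AXL and MERTK, had 1 count in the graft in all and 3283, 1831, 1634 and 2992 normalized reads in the colon, a ratio of 3085-fold (95% counting interval 553 to 121878). Axl rose from 124, 104 and 196 to 379.5, 526, 228 and 279 (1.64, adjusted p = 0.000841) and Cd36, a scavenger receptor, from 2.42, 11.2 and 17.4 to 58.4, 59.2, 51.2 and 193. Mertk was too low to be tested, with no count in the graft and 13.6, 40.5, 20.7 and 13.2 in the colon, and Cd300lf, an inhibitory receptor for phosphatidylserine, fell from 395, 269 and 362 to 15.6, 71.6, 12.2 and 14.8, with the opposite sign relative to the leukocyte genes (0.85).

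Genes of inflammatory effectors rose more often than they fell, 10 against 1 of 18 (median 2.22). All genes did so too, with 37.7% higher and 24.9% lower. Il1b had 89.6, 157 and 63.9 in the graft and 2213, 3989, 660.3 and 505 in the colon, a log2 fold change of 4.45 (SE 0.72, adjusted p = 1.14e-05 by edgeR). Cxcl1, a chemokine that epithelium and stroma also make, rose from 0 to 206, 171, 111 and 329.8. Tnf had 182, 166 and 145 and 219.9, 339, 105 and 120.4 (adjusted p = 0.425), and Nlrp3, the inflammasome sensor, 337, 342 and 339 and 121, 286, 35.3 and 18.1 (adjusted p = 0.128, and 0.0126 without colon replicate 2). Il6 was below the filter (2.42, 5.61 and 0 and 13.6, 15.6, 14.6 and 24.7). The fall was that of Lcn2, an iron-scavenging protein of granules, from 930.0, 702 and 853 to 95.4, 24.9, 31.7 and 14.8, and it was at 0.59 relative to the leukocyte genes.

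Interferon response genes were mostly lower. Of 30 interferon response genes none rose and 22 fell (median -1.97), against 37.7% and 24.9% of all genes. Irf7, the regulator of type I interferon, fell from 2385, 1906 and 2726 to 274, 308, 213 and 351 (-2.67, adjusted p = 7.68e-07) and Ifitm3, an antiviral membrane protein, fell by 3.05 on the log2 scale. The largest falls were those of Oas3 (259, 154 and 271 to 7.78, 6.23, 0 and 1.65) and Mx1 (458, 679 and 686 to 27.2, 37.4, 4.87 and 8.25), antiviral enzymes. Of 18 genes of toll-like receptor signalling 10 fell and 3 rose (median -0.69), against 24.9% and 37.7% of all genes. Tlr2, a sensor of bacterial lipoproteins, fell from 736, 876 and 727 to 62.3, 93.4, 47.5 and 134, Myd88, the shared adaptor, fell by 1.89, Irak3, an inhibitor of the pathway, fell by 3.07 and Tlr13, a sensor of bacterial ribosomal RNA, fell by 3.59. Tlr3, a sensor of double-stranded RNA that epithelium also expresses, rose to 13.6, 59.2, 53.6 and 66.0 from 2.42, 5.61 and 1.94. Tlr4, the endotoxin receptor, had 55.7, 87.0 and 105 and 117, 162, 92.6 and 109 (adjusted p = 0.0497), and it did not pass without graft replicate 1 or 3 or without colon replicate 2, 3 or 4 (0.0546 to 0.198), nor with mapped totals (0.52, adjusted p = 0.28). Of 14 NF-κB genes 4 fell and 3 rose (median -0.24), where the share of falls is near the 24.9% of all genes, with Nfkb1 (-2.56, adjusted p = 1.28e-08), Rela (-0.85, adjusted p = 0.0146) and the kinase gene Ikbkb (-1.99, adjusted p = 3.92e-07) lower and the inhibitor Tnfaip3 higher (2.14, adjusted p = 0.000829). Nfkbia, the main inhibitor, had 3715, 3410.5 and 2866 and 3217, 3494, 1355 and 2604. Relative to the leukocyte genes 25 of the interferon genes, 15 of the toll-like receptor genes and 14 of the NF-κB genes were higher and none lower, against 96.1% of all genes higher.

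Genes of monocytes and young marrow cells had the lowest list medians. Of 23 classical monocyte genes 18 fell and 1 rose (median -6.34), against 24.9% and 37.7% of all genes. Relative to the leukocyte genes 11 of the monocyte genes were lower and 7 higher, against 0.709% and 96.1% of all genes on that scale. Ly6c2 (chromosome 15, 74938591 to 74942379 in mm9), whose product marks inflammatory monocytes, had 23435, 26717 and 20738 normalized reads in the graft and 165, 87.2, 153 and 124 in the colon, log2 fold changes of -7.11 (SE 0.93, adjusted p = 6.58e-07 by edgeR) and of -2.48 relative to the leukocyte genes. The graft was sorted as Ly6C+ and the labels state Ly6C- for the colon. The part that these gates had in the fall of Ly6c2 was not tested. Ly6c2 and Ly6c1, an endothelial gene, are near-identical and may share reads. Ccr2, the receptor for exit from the marrow, fell from 4611, 6535 and 6518 to 15.6, 49.8, 23.15 and 8.25 (-7.65, adjusted p = 2.61e-08; -3.30 relative). S100a8, an alarmin, fell from 2318, 1260.3 and 938 to 3.89, 21.8, 3.65 and 23.09 (-2.12 relative). The rise was that of Thbs1, a matrix glycoprotein that stroma also makes, to 669, 582, 517 and 368 from 184, 278 and 122.

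Of 18 tested genes of the granules of young marrow cells 14 fell and 1 rose, against 24.9% and 37.7% of all genes. Their median was -7.36 (-7.17 with genes at 0 set to their bound). Relative to the leukocyte genes 11 were also lower, against 0.709% of all genes on that scale. Mpo (615, 702 and 188 in the graft), Elane (552, 615 and 234) and Ctsg (947, 792 and 403), which encode myeloperoxidase, neutrophil elastase and cathepsin G, had no count in any colon library. They were at least 378-fold, 352-fold and 538-fold lower, and in all 3 the graft of experiment 3 had the lowest level of the graft. Prtn3, proteinase 3, fell from 3489.7, 2799 and 1645 to 3.89, 3.114, 1.22 and 0. The rise was that of Serpinb1a, an inhibitor of these proteases, from 441, 710.2 and 504 to 2748, 2768, 1977 and 2541 (2.53, adjusted p = 9.07e-06).

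Among genes with at least 200 normalized reads in 1 group and no overlap, the largest falls included Atp8b4, Ctsg, Chil3, Lilra6, Galnt9, Mmp8 and Mpo. Chil3, a chitinase-like protein of myeloid cells, fell from 7696, 9777 and 9905 to 5.84, 3.114, 2.44 and 3.3, and Mmp8, a collagenase of granulocytes, from 678, 1527 and 1866 to 0, 3.114, 0 and 0. Atp8b4, a lipid flippase, had 598, 822 and 915 and Galnt9, a glycosyltransferase, 579, 531 and 663 in the graft, both without a count in the colon. Lilra6, a leukocyte receptor gene, had 1388, 1594 and 1790.3 in the graft and 1 count in the colon. The 8 largest rises were Oit1, Ckmt1, Tspan1, Spink4, Mptx1, Phgr1, Dmbt1 and Clca1, which had at most 2 counts in the graft and are genes of gut epithelium as far as their roles are known. Oit1 had 20657, 11313, 12288 and 14764 and Ckmt1, a mitochondrial creatine kinase, 16980.4, 11612, 9991 and 16139.5, at least 6322-fold and 5861-fold higher. Tspan1 had 17375, 11328, 10898 and 11901 and Spink4, a goblet cell peptide, 11144, 11605, 9595 and 9998, both from 0. Mptx1, a mucosal pentraxin, had 14482, 31008, 7099 and 17543 and Phgr1 19472, 13782, 32181 and 23015. Dmbt1, a mucosal scavenger protein, had 14769.5, 16622, 13011 and 8320.4, and Clca1, a goblet cell protein, 5831, 10214, 169 and 1836, which spread widely between libraries.

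**Figure D3:**
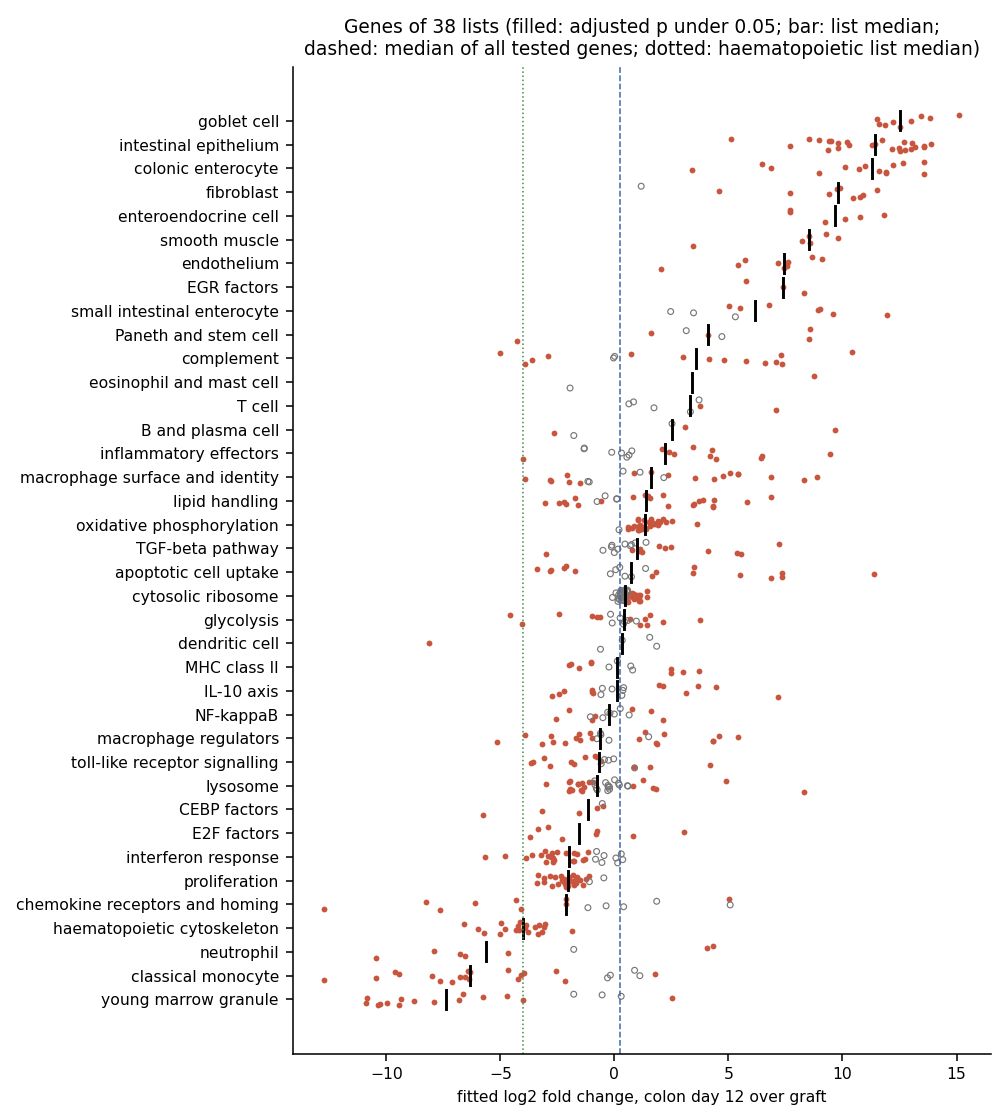
Fitted log2 fold change of each tested gene of 38 lists, colon day 12 over graft, with genes that passed filled, list medians as bars, the median of all genes (0.24) dashed and that of the haematopoietic list (-4.01) dotted. The granule, monocyte and neutrophil lists have medians below the dotted line and the goblet cell, epithelial and colonic enterocyte lists have the highest medians, where fitted values of genes without a count in the graft depend on the prior count.

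Cell division genes were lower. All but 2 of 32 proliferation genes fell (median -2.04), none rose, and all 32 had a negative log2 fold change. Over all genes 24.9% fell and 37.7% rose. Mki67, a marker of cycling cells, fell from 3083, 2841 and 2244 to 504, 657, 519 and 274 (-2.14, adjusted p = 1.09e-05), Top2a, a topoisomerase, from 4846, 4662 and 3319 to 594, 701, 413 and 327 and Mcm5, part of the replication helicase, from 1448, 1432 and 1075 to 276, 181, 179 and 205. Ccnb1, a mitotic cyclin, changed by -2.03, adjusted p = 0.00109, and Aurkb and Hmgb2 had the largest falls (-3.41 and -3.35). Of 8 E2F factors, which drive entry into the cycle or repress it, 6 fell and 2 rose, against 24.9% and 37.7% of all genes. E2f2 fell from 3577, 3046 and 2817 to 379.5, 199, 135 and 99.0 and E2f7 fell by 3.37 on the log2 scale, while E2f5 rose from 26.6, 47.7 and 46.5 to 265, 289.6, 289 and 223. Relative to the leukocyte genes 29 of 32 proliferation genes were higher and none lower, against 96.1% of all genes higher on that scale.

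Chemokine receptors and homing genes fell in 8 of 14 cases and rose in 1 (median -2.13), against 24.9% and 37.7% of all genes. Itgb7, a chain of the gut-homing integrin α4β7, fell from 5219, 4138 and 4702 to 9.73, 0, 21.9 and 8.25 (-8.25, adjusted p = 3.39e-08; -3.63 relative to the leukocyte genes). Cxcr4, a receptor that retains cells in the marrow, fell from 610.3, 842 and 599 to 132, 168, 58.5 and 137, and was at 2.29 relative to them. Itgae, which pairs with the product of Itgb7 and binds E-cadherin, had at most 6.60 normalized reads in any of the 7 libraries.

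Of 32 genes of oxidative phosphorylation 31 rose and none fell (median 1.36), against 37.7% and 24.9% of all genes. Atp5b, a subunit of ATP synthase, rose from 7328, 6329.8 and 6774 to 14988, 13402, 12709 and 12442 (1.32, adjusted p = 0.000113), and Uqcrb and Cox6c, subunits of complexes III and IV, had the largest rises (3.60 and 2.55). Ndufa4 was the gene that did not pass (186, 157 and 221 and 245, 184, 166 and 102). Of 20 glycolytic genes 7 rose and 6 fell, near the 37.7% and 24.9% of all genes. Hk3, a hexokinase of myeloid cells, fell from 1589, 1207 and 1176 to 64.2, 153, 28.0 and 29.7 and Slc16a3, a lactate exporter, fell by 4.56, while Ldha, lactate dehydrogenase, rose from 2463, 2739.6 and 2866 to 8859, 5829, 5694 and 4817 and Aldoc, an aldolase, by 3.77. Of 26 genes of lipid handling 15 rose and 7 fell (median 1.40), where the share of falls is near the 24.9% of all genes. Abca1, a cholesterol exporter, rose from 4.84, 16.8 and 9.69 to 38.9, 177, 52.4 and 107, highest in replicate 2, and Fabp4, a fatty acid carrier of macrophages and endothelium, from 4.84, 0 and 23.3 to 555, 99.6, 502 and 714, lowest in replicate 2. Lpl, lipoprotein lipase, fell from 865, 1274 and 1035 to 162, 202, 161 and 95.7 and Apoc2, its cofactor, fell by 3.04. Dgat1, which makes triglycerides, had 356, 401 and 327 and 545, 738, 375 and 386 (0.83, adjusted p = 0.0168), and did not pass without graft replicate 2 (0.0714) or colon replicate 2 (0.0764). Hk3 (0.21), Lpl (2.05) and Apoc2 (1.34) had the opposite sign relative to the leukocyte genes. Epithelium expresses these metabolic genes too, and the part that its RNA has in their change was not tested. Of 40 genes of the cytosolic ribosome 16 rose and none fell (median 0.47), a share of rises near the 37.7% of all genes. Rps20 rose by 1.42 and Rplp1 by 1.04 on the log2 scale. Rpl10 had 3541, 3183 and 3387 and 3211, 3491, 4118 and 4471 (0.56, adjusted p = 0.0273), which overlap, and its adjusted p was 0.0772 to 0.138 without graft replicate 1 or 2 or colon replicate 3 or 4. Scaled to mapped totals, neither Rpl10 (0.18, adjusted p = 0.469) nor Dgat1 (0.49, adjusted p = 0.175) passed.

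The 142 named genes that passed had all 4 colon libraries on the stated side of the graft mean, apart from Rpl10, Acta2 and Defa22. Within each of the 3 experiments they had the same direction, apart from H2-Aa, Rpl10, Defa20, Defa21 and Defa22. The 8 largest rises and falls were chosen for no overlap of the libraries, which fixed both agreements in advance for them. All 142 were counted because they passed, which favours such agreement, so these tallies are a description only. Among the colon libraries, replicate 2 of experiment 2 stood apart. It had the highest haematopoietic sum and the lowest sums of epithelium, fibroblasts, muscle and endothelium. It was highest for C1qa, C1qb, C1qc, Csf1r, Adgre1, Ptprc and H2-Ab1. Without it 4345 genes were higher and 2827 lower, and the log2 fold changes of C1qa and Csf1r were 6.84 and -1.77.

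**Figure D4:**
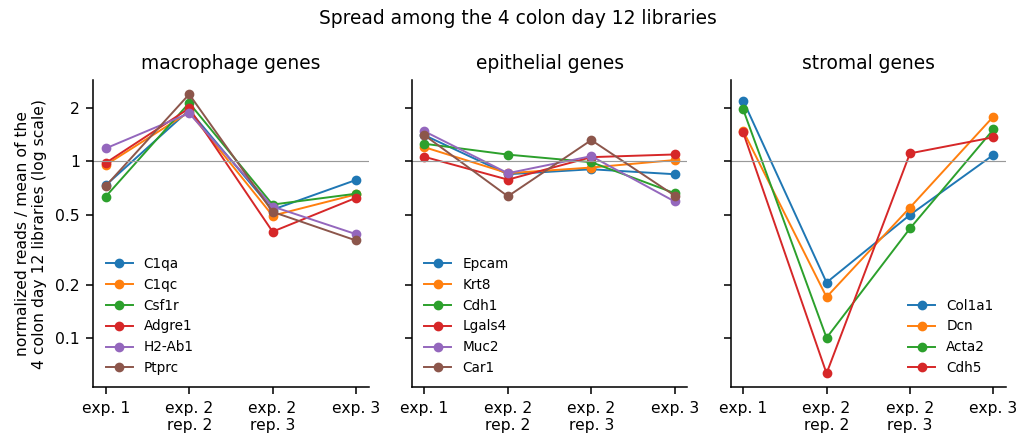
Normalized reads of single genes in each colon day 12 library, divided by the mean of the 4 libraries (log scale), for macrophage, epithelial and stromal genes. Replicate 2 of experiment 2 is highest for all 6 macrophage genes and lowest for all 4 stromal genes, while the 6 epithelial genes shown differ less between libraries. Epithelial genes not shown here can spread more widely, such as Tff3 (1434 to 11782 normalized reads) and Clca1 (169 to 10214).

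Against the 3 colon libraries of day 4, 0 of 11842 genes (0%) passed with edgeR, 245 had an unadjusted p under 0.05 and DESeq2 called 1. That gene was H2-M2, a nonclassical MHC gene, with 11.9 to 20.3 normalized reads in the 3 libraries of day 4 and 269, 778, 46.3 and 99.0 on day 12, and it is named for being the sole call. C1qa had 1262 to 3323, Socs3 308 to 537 and Il10 8.13 to 14.3 normalized reads on day 4. The epithelial list summed to 171923 to 197808 and the haematopoietic list to 3242 to 7397 on day 4. Against ileal cells of day 12, 1808 genes (15.3%) were higher in colon and 2038 (17.2%) lower. Relative to ileum C1qa had a log2 difference of -2.39 (edgeR adjusted p = 0.00437), with 12651 to 34542 in the 4 ileal libraries, and Socs3 one of -0.94 (edgeR adjusted p = 0.00896). Il10 had 24.9 to 82.8 in ileum, a difference of -0.51 (edgeR adjusted p = 0.61). All 20 haematopoietic genes were lower in colon than in ileum, where they summed to 17955 to 59572, and 22 of 25 epithelial genes were higher, with 23767 to 58722 in ileum. By the rule for named genes, the largest differences higher in colon were Insl5, a hormone of colonic endocrine cells (5.51, edgeR adjusted p = 0.000278), Fut2, a fucosyltransferase (5.13, edgeR adjusted p = 0.000469), and Fxyd4, a regulator of the sodium pump (5.11, edgeR adjusted p = 0.000317). The largest lower in colon were the Paneth cell defensins Defa21 (-7.84, edgeR adjusted p = 0.000577), Defa22 (-7.72, edgeR adjusted p = 0.000696) and Defa20 (-7.30, edgeR adjusted p = 0.00106), members of a family with near-identical sequences whose reads may be split between them.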

How the data were processed

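RNA of sorted cells was sequenced from the 3′ end by a derivation of MARS-seq on a NextSeq 500. Per the submitters' processing notes the tools were bcl2fastq, HISAT 0.1.6 and HOMER with mm9, and the authors deposited raw counts of sense reads on exons per gene. Whether molecular identifiers were collapsed is not given in the sources used here. The table holds 24411 genes and 26 libraries.

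Counts were fitted with edgeR 4.0.16 (TMM, quasi-likelihood test, R 4.3.3) over 25 libraries in 7 groups, leaving out the colon day 8 library of experiment 1. Genes needed 50 normalized reads in 3 libraries. P-values were adjusted by Benjamini-Hochberg over 11842 genes. DESeq2 1.42.0 was an alternative. Named genes were the key genes of 38 lists, the 8 largest rises and falls with at least 200 normalized reads and no overlap, up to 2 genes per list and direction, and 3 per direction for the contrast with ileum. Members and lists were chosen with earlier results of these data known. Over 9 pairs of replicates none agreed within sampling noise (smallest chi-square per degree of freedom 6.47). In simulated counts all 25 libraries had the mean levels of the graft, with 1 spread for all genes and 200 genes changed in the colon day 12 group. There 70 of 100 4-fold and 14 of 100 2-fold changes were recovered among 11842 genes, with 3 false calls. These figures do not carry over to the real comparison, where 62.6% of genes passed. A second count table, of CX3CR1-DTR recipients, was not used here, and a few named genes are not reported here.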

Additional observations from a re-analysis of the deposited data

Results flagged for a closer look

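Single libraries stood apart from the other 3 colon day 12 libraries in 14 of 163 items tested with Dixon's ratio, the gap to the nearest library divided by the range, above the 95% critical value for 4 libraries. Chance flags about 1 in 20. Replicate 2 of experiment 2 was high for Csf1r (ratio 0.945), Tyrobp (0.84), Irf5 (0.923), Cd300lf (0.943), Tlr13 (0.854), Lyz1 (0.845), Fabp1 (0.907) and the summed Paneth and stem cell list (0.952), and low for Lgals4 (0.877). Experiment 3 stood apart for Cd36 (0.944), experiment 1 for Epcam (0.899), Tspan1 (0.845) and Defa20 (0.861), and replicate 3 of experiment 2 for Slc26a3 (0.841).

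Colon and ileum of day 12 differed by the edgeR contrast between them in log2 level of Insl5 (5.51), Fut2 (5.13) and Fxyd4 (5.11), higher in colon, and of Defa21 (-7.84), Defa22 (-7.72) and Defa20 (-7.30), lower in colon.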

How the results depend on the processing

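Counts of genes higher and lower on day 12 than in the graft were 4453 and 2957 with RLE size factors, 4634 and 3115 with DESeq2, 5487 and 3065 of 18566 without the filter, 3959 and 3164 of 10567 with the 7 libraries alone, and 4347 and 2794 with all 26 libraries. Leaving out 1 library gave 4024 to 4406 higher and 2525 to 2827 lower, and for the fixed lists, leaving out 1 colon library, 234 to 242 and 189 to 200, against 245 and 195 of 582 tested genes. Against ileum, the ranges were 1396 to 1699 higher and 1493 to 1858 lower, and against day 4 they were 0 to 0, where DESeq2 called 1. Mapped totals moved the share of higher calls from 60.2% to 48.6%. With the experiment as replicate block the counts were 4456 and 2969, and 244 and 198 in the lists. Deviations of graft and colon correlated at 0.18, 0.22 and -0.08 within experiments 1, 2 and 3, and at -0.25 to 0.07 between experiments. The main fit used groups only and no pairing. Component 1 held 91.9% with 1 added in place of 50 and 95.6% over 2000 genes.

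Of 142 named genes that passed, 135 passed under every alternative other than haematopoietic scaling. Mpo and Elane were lost with DESeq2 (adjusted p = 0.0986 and 0.102). Mapped totals ended the calls of Rpl10, Dgat1 and Tlr4 and added Csf1r, Cx3cr1 and Ctsb. The cause was not tested. Under haematopoietic scaling, chosen after seeing the data, 11380 genes were higher and 84 lower, with 511 and 27 in the lists, and 47 named genes took the opposite sign by construction of the scale. Their log2 fold changes were Mki67 2.34, Top2a 1.70, Mcm5 2.26, Ccnb1 2.47, E2f2 0.87, Cebpa 2.87, Cebpb 1.31, Spi1 1.03, Irf8 2.21, Adgre1 2.72, Cx3cr1 3.17, Csf1r 3.13, Cfp 1.42, Il10ra 1.62, Stat3 3.61, Tgfb1 1.47, Tgfbr1 4.46, Ctsb 3.74, Ctsd 4.35, Nlrp3 2.79, Irf7 1.86, Ifitm3 1.59, Tlr2 1.66, Myd88 2.67, Irak3 1.45, Cxcr4 2.29, Nfkb1 1.93, Rela 3.72, Nfkbia 4.45, Hk3 0.21, Lpl 2.05, Ptprc 0.80, Tyrobp 0.053, Cd79a 2.61, Aurkb 1.18, Hmgb2 1.23, E2f7 1.16, Itgam 0.34, Tyk2 2.12, Ctss 2.44, Psap 1.37, Cd300lf 0.85, Lcn2 0.59, Tlr13 0.69, Ikbkb 2.56, Apoc2 1.34 and Lyz1 0.026. Depth limits low genes: 1 read was worth 1.22 to 3.114 normalized reads in the colon.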
